A study of Mus musculus with 2 samples.

Results

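Integrins are receptors of 1 alpha and 1 beta subunit that bind extracellular matrix or other cells, and the proteins of the focal adhesion core couple their cytoplasmic tails to actin. The 41 genes described here were taken by name, but with earlier results of these data known. They were 18 alpha subunits, 8 beta subunits and 15 genes of the adhesion core, out of 22096 gene symbols in the deposited tables. All 41 were listed in both libraries, in 54 transcript entries. The cells came from E13.5 mouse forelimbs (mixed strain background) carrying a green fluorescent reporter under regulatory sequence of *Scx*, the gene of the tendon and ligament transcription factor scleraxis. One library was made from sorted ScxGFP positive cells and the other from sorted ScxGFP negative cells, with cells of 6 forelimbs (3 pairs) pooled for each. The negative library is not 1 cell type: it holds whatever limb cells did not carry the reporter.

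The ligand is set mainly by the alpha subunit. Alpha 1, 2, 10 and 11 bind collagens, alpha 3, 6 and 7 bind laminins, and alpha 5, 8, v and IIb bind the RGD peptide of fibronectin and related proteins. Alpha 4 and alpha 9 bind fibronectin variants, tenascin and the cell surface protein VCAM1, and alpha D, E, L, M and X are integrins of leukocytes. Inside the cell, talin and kindlin bind the beta tail and switch the receptor on. The complex of ILK, PINCH and parvin, with focal adhesion kinase, paxillin, vinculin and zyxin, then links it to actin and to signalling. In tendon such adhesions hold the cells to the collagen matrix that they make and through which muscle force passes.

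Values are FPKM (fragments per kilobase of transcript scaled to the number of mapped fragments), added up for each gene symbol, so levels of different genes are compared per length. A gene counted as measured at 1 FPKM or more in at least 1 library, which 32 of the 41 members and 12096 genes in all did. Ratios are log2((FPKM positive + 1) / (FPKM negative + 1)), which understates the difference of genes at low levels. With 1 library per group there is no replicate error and no test, so a difference is given by its size against a 2-fold threshold and describes these libraries only. Coverage added up to 0.687 gigabases aligned to transcripts for positive and 0.875 for negative cells. *Scx* checks the labels: 134 FPKM in the positive library against 1.69 in the other. Of tendon markers 5 of 6 were at least 2-fold higher in the positive library, as were 9 of 10 measured skeletal muscle markers, so that library held RNA of muscle genes too. Of cartilage markers 1 of 6 measured and of pericyte and smooth muscle markers 2 of 4 were at least 2-fold higher, with 0 lower in either list. Of Schwann cell markers 5 of 6 were at least 2-fold lower. Over all measured genes the log2 ratio had a median of -0.27. Scaling the libraries in other ways moved that median to between -0.04 and 0.17, and 6 of the 32 members changed sign between these scalings. With equal FPKM sums 6.07% of all measured genes passed 2-fold on the higher side and 6.13% on the lower, in place of 4.03% and 9.98%, and of the members 1 and 10.

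By summed alpha subunit FPKM, ScxGFP positive cells held mainly RGD and collagen receptors, the latter mostly as *Itga11*. The RGD class summed to 18.3 FPKM against 15.6 in the other cells. Beta 1 and beta 5 were the most abundant beta subunits in both libraries. Most of the adhesion core was within 2-fold of the other cells. Of the 32 measured members 1 was at least 2-fold higher in positive cells, *Itga11*, or 3.12%, against 4.03% of all measured genes. Another 12 were at least 2-fold lower, or 37.5%, against 9.98% of all measured genes, and 19 were within 2-fold. These counts describe the measured members and are no support for a shift of the set, since 10 of the 12, all but *Itga4* and *Itga6*, were under 1 FPKM in positive cells and passed the minimum through the negative library alone. Of the 19 members at 1 FPKM or more in both libraries, 1 was at least 2-fold higher and 2 lower (10.5%), against 2.28% and 5.03% of all such genes, and the median log2 ratio was -0.01 against -0.25. The 12 were *Itga2*, *Itga3*, *Itga6*, *Itgb4*, *Itga4*, *Itgal*, *Itgam*, *Itgb2*, *Itgb7*, *Fermt1*, *Fermt3* and *Parvg*. The median log2 ratio of the measured members was -0.30, close to the -0.27 of all genes. Of the 12 lower genes 6 are leukocyte integrins or the blood cell paralogues *Fermt3* and *Parvg*. Without the leukocyte class and those paralogues 6 of 26 measured members were lower, or 23.1%, and the median was -0.19. Of those 6, *Itga2*, *Itga3*, *Itgb4* and *Fermt1* were under 1 FPKM in positive cells.

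**Figure D1:**
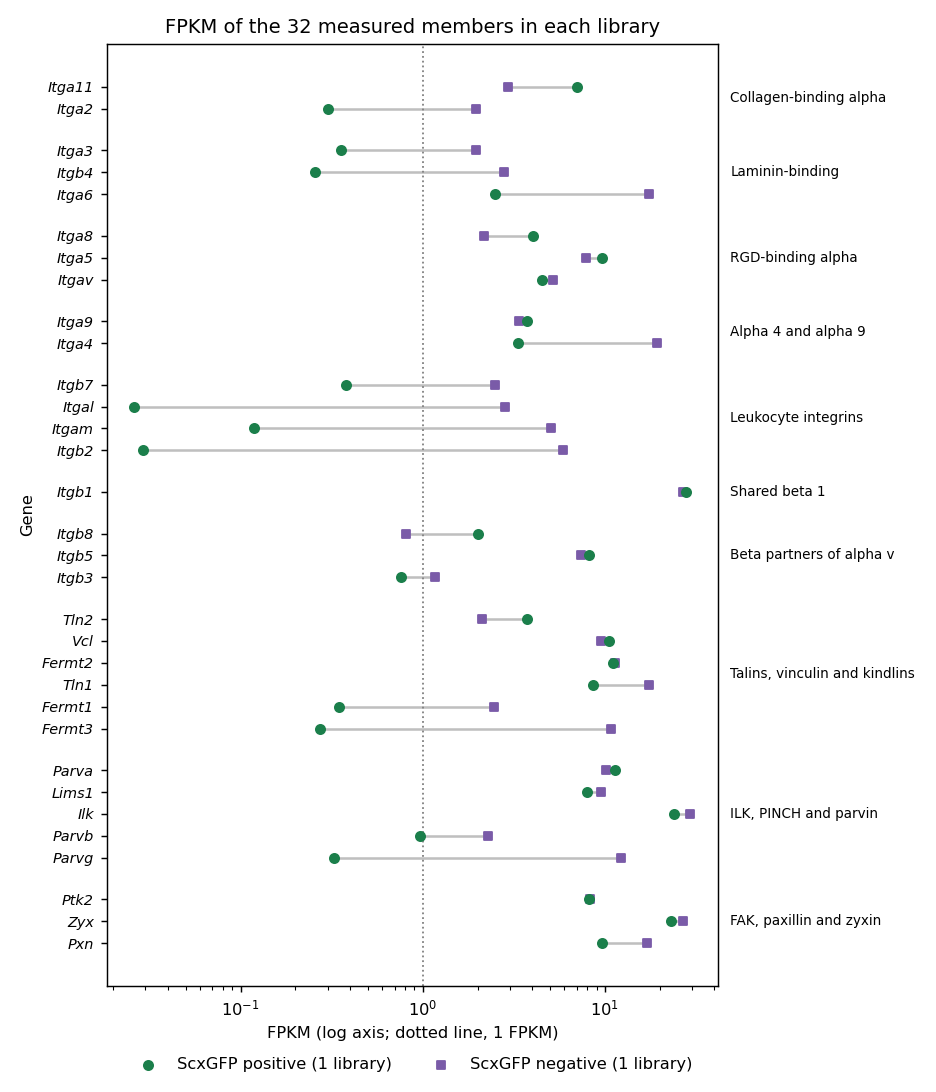
FPKM (log axis) of the 32 measured members in the ScxGFP positive library (circles) and the ScxGFP negative library (squares), 1 library each, by group. Points of *Itgb1*, *Fermt2*, *Vcl*, *Parva* and *Ptk2* nearly coincide, whereas *Itgb2* and *Itgal* lie under 0.03 FPKM in the positive library and above 2.8 FPKM in the negative.

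The promoters of 4 genes are shown because they span the contrast: *Itga11*, the 1 member at least 2-fold higher, *Itgb1*, nearly equal in both libraries, and *Itgam* and *Parvg*, of blood cells. The 120 bases before the RefSeq start of each are given 5′ to 3′ on the strand of the gene, from RefSeq on GRCm38.p6, in which *Itga11* is at chr9:62677735-62677854, *Itgb1* at chr8:128685534-128685653, *Itgam* at chr7:128062520-128062639 and *Parvg* at chr15:84324600-84324719. All 4 genes lie on the plus strand. Capitals mark GAGGAA or its reverse complement, letters of the core bound by ETS family factors, among them PU.1 of myeloid cells.
Itga11: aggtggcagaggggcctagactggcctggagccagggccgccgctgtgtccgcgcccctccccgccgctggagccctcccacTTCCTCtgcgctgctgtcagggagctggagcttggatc
Itgb1: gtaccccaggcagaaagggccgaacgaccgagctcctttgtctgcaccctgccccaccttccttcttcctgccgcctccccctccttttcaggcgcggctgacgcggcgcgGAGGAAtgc
Itgam: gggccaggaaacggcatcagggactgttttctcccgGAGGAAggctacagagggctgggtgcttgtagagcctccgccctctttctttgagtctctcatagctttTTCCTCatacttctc
Parvg: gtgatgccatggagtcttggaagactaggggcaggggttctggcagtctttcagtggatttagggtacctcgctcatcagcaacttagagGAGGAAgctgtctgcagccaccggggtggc

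The 4 genes were chosen after their values were seen, and the letters were in all 4 windows, whichever library had more of the transcript. A second RefSeq start of *Parvg* had none in the 250 bases before it. Promoter entries were found for 28 of the 41 members, 34 in all. Searched on both strands of the 250 bases before the start, GAGGAA was in 11 of the 34 entries (32.4%) and in 23.3% of all 32851 promoters of that length. Of the lower members with an entry 3 of 8 held it, and of the other measured members 6 of 15. Among the lower leukocyte integrins, *Fermt3* and *Parvg*, 4 genes had an entry. Only 2 of these held the letters, *Itgam* and *Parvg*, which are the 2 shown. GGGCGG, the GC box, was in 15 of 34 (44.1%) against 32.7% of all promoters, and the E-box letters CAGATG in 5 (14.7%) against 14.4%. TATAAA was in 1 (2.94%), against 12.4%. The CArG box, bound by serum response factor, was in 3 (8.82%) against 1.47%, those of *Vcl*, *Fermt2* and *Itgb6*. These are matches of letters and not sites shown to be bound.

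Collagen receptors were carried by *Itga11* in positive cells. *Itga11*, which encodes the alpha 11 subunit that binds fibrillar collagen in mesenchymal cells, stood at 7.02 FPKM in positive cells against 2.95. Its log2 ratio was 1.02, its positive value was 238% of its negative value, and it lies on mm9 chromosome 9 from 62525662 to 62631786. The gene sat just past 2-fold, and with a pseudocount of 5 its ratio was 0.60. Under the 5 other scalings it was 1.23 to 1.42. *Itga2*, the collagen receptor of platelets and epithelia, went the other way, at 0.2998 FPKM against 1.96 (log2 ratio -1.19). Under the other scalings it lay at -1.003 to -0.84, on either side of 2-fold. *Itga1*, the alpha 1 subunit that prefers basement membrane collagen, stood at 0.983 against 0.840 FPKM, and *Itga10*, the alpha 10 subunit of cartilage, at 0.497 against 0.469. Both were under 1 FPKM in each library and thus counted as not measured. *Itga11* was the second most abundant alpha subunit of positive cells, with 18.8% of their summed alpha FPKM, and the seventh of negative cells, with 4.06%.

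The measured laminin receptors were lower in positive cells. *Itga6*, whose product pairs with beta 1 or beta 4 and binds laminins of basement membranes, stood at 2.496 FPKM against 17.5 (log2 ratio -2.41). *Itgb4*, the beta 4 subunit of hemidesmosomes, stood at 0.256 against 2.80 (-1.60), and *Itga3*, a laminin receptor of epithelia, at 0.354 against 1.95 (-1.12). All 3 measured genes of this class were at least 2-fold lower, but *Itgb4* and *Itga3* passed the minimum through the negative library alone. That count is thus no support for a shift of the class. *Itga3* was under 2-fold in every other scaling tried, at -0.94 to -0.78. *Itga7*, the laminin receptor of skeletal muscle, stood at 0.167 FPKM against 0.0803, the former on about 1530 aligned bases, although 9 of 10 measured muscle markers were at least 2-fold higher in that library. *Fermt1*, which encodes the kindlin of epithelia, was lower as well, at 0.349 against 2.45 (-1.36).

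Markers of the epithelium moved with these genes. Of 9 measured epidermal markers 8 were at least 2-fold lower, with a summed level of 13.4 FPKM against 347, and none of the 10 listed was at 0 in either. Their median positive value was 4.04% of the negative, against 14.2% for *Itga6*, 9.15% for *Itgb4*, 18.1% for *Itga3*, 15.3% for *Itga2* and 14.2% for *Fermt1*. Endothelial markers, whose cells also express *Itga6*, were lower in 9 of 10 cases, with sums of 3.74 and 61.3 FPKM and *Cldn5* listed at 0 in the positive library. What part either cell type has in the lower laminin receptors was not tested. In pooled cells of this kind, fewer cells of a type and less RNA per cell cannot be told apart.

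The RGD receptors were within 2-fold. *Itga5*, the alpha 5 subunit of the main fibronectin receptor, was the most abundant alpha subunit of positive cells, at 9.64 FPKM against 7.89 (log2 ratio 0.26). *Itga8*, a receptor of nephronectin and fibronectin in mesenchyme, stood at 4.01 against 2.18 (0.66), and 1 scaling put it past 2-fold, at 1.02. *Itgav*, which encodes the alpha v subunit of vitronectin and latent TGF-beta receptors, stood at 4.53 against 5.17 (-0.16), and its sign turned with the scaling, up to 0.30. *Itga2b*, the platelet subunit, was under 1 FPKM in both libraries, at 0.0785 and 0.399. The first of these rests on about 616 aligned bases. Megakaryocyte markers were low as well: 3 of 12 were measured and all 3 were at least 2-fold lower. The 12 had sums of 2.44 and 28.9 FPKM, and *Pf4* alone held 21.6 of the latter. *Gp6*, *Gp9*, *Treml1* and *Clec1b* were listed at 0 in the positive library, but were also near the floor in the negative, at 0.0721 to 0.348 FPKM.

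Beta partners of alpha v did not move as 1. *Itgb5*, the most abundant of them, stood at 8.17 FPKM against 7.39 (log2 ratio 0.13). Its sign turned, to -0.06, when only the highest transcript was used. *Itgb8*, whose product presents and helps activate latent TGF-beta, stood at 2.02 against 0.805 (0.74), 250% of its negative value. It was within 2-fold on the FPKM + 1 scale but past it, at 1.22, with a pseudocount of 0.1. *Itgb3*, the partner of platelets and osteoclasts, stood at 0.759 against 1.17 (-0.30), and *Itgb6*, the epithelial partner, was under 1 FPKM in both, at 0.170 and 0.288.

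*Itgb1* was level between the libraries. It encodes the beta 1 subunit that pairs with most of the alpha subunits above, and stood at 27.8 FPKM in positive cells against 27.0 (log2 ratio 0.04). This lay 0.31 above the median of all genes, and other scalings gave up to 0.58. It took 70.3% of summed beta subunit FPKM in positive cells against 56.5%, *Itgb5* took 20.6% and 15.4%, and *Itgb2* 0.0737% and 12.3%. Set against *Itgb1* of the same library, *Itga11* stood at 25.2% of its level in positive and 10.9% in negative cells, and *Itga6* at 8.97% and 64.9%.

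The alpha 4 and alpha 9 pair divided. *Itga4*, a receptor of leukocytes and of other embryonic cells, was the most abundant alpha subunit of negative cells, at 19.4 FPKM there and 3.33 in positive cells (log2 ratio -2.24). *Itga9*, which binds tenascin and VCAM1, stood at 3.73 against 3.39 (0.11), close to level. The positive value of *Itga4* was 17.1% of its negative value, beside 15.3% for the leukocyte integrin *Itgb7*. This was above the values of *Itgal*, *Itgam* and *Itgb2* given next. Genes set beside the epidermal markers above had values of like size: *Itga3* 18.1%, *Itga2* 15.3%, *Itga6* 14.2% and *Fermt1* 14.2%. Of 7 measured erythroid markers 6 were at least 2-fold lower, with sums of 156 and 6417 FPKM, and their part in the level of *Itga4* was not tested.

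**Figure D2:**
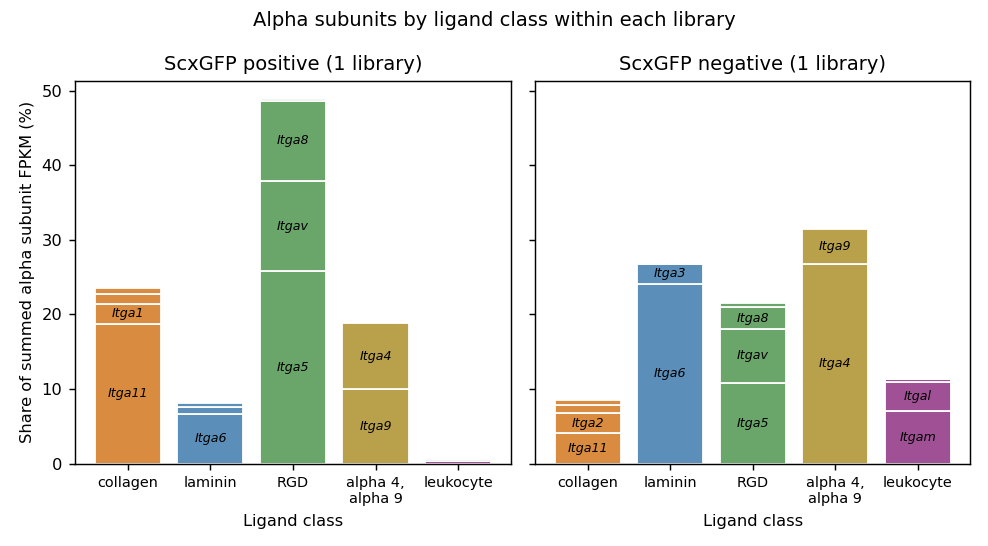
Share (%) of the summed FPKM of the 18 alpha subunits taken by each ligand class within the positive (left) and the negative library (right), with genes stacked. RGD and collagen classes hold 48.8% and 23.5% in positive cells against 21.5% and 8.57% in negative cells.

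Within a library these shares do not depend on how the libraries are scaled to each other, though they sum to a whole and so move together. Alpha subunits added up to 37.4 and 72.6 FPKM. The RGD class made up 48.8% of the sum in positive and 21.5% in negative cells, and the collagen class 23.5% and 8.57%. The laminin class made up 8.07% and 26.9%, alpha 4 with alpha 9 18.9% and 31.4%, and the leukocyte class 0.669% and 11.5%. The order of the first 4 alpha subunits was *Itga5*, *Itga11*, *Itgav*, *Itga8* in positive cells and *Itga4*, *Itga6*, *Itga5*, *Itgav* in negative cells. With 1 library each, no spread is known by which neighbours in these orders could be told apart.

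Leukocyte integrins were close to 0 in positive cells. *Itgb2*, the beta subunit common to integrins of white blood cells, stood at 0.0292 FPKM against 5.89 (log2 ratio -2.74). *Itgam*, the alpha M subunit of macrophages and granulocytes, stood at 0.119 against 5.08 (-2.44), and *Itgal*, the alpha L subunit of lymphoid and myeloid cells, at 0.0261 against 2.83 (-1.90). *Itgb7*, the beta subunit of mast cells and gut-homing lymphocytes, stood at 0.380 against 2.49 (-1.34). All 4 measured genes of the class were at least 2-fold lower. Each passed the minimum through the negative library alone, so this count is no support for a shift of the class. The positive values of *Itgb2* and *Itgal* rest on about 191 and 232 aligned bases, so the size of their ratios is poorly bounded. *Itgae*, *Itgax* and *Itgad*, of subsets of leukocytes, were under 1 FPKM in both, between 0.0382 and 0.301 in the negative library and at most 0.0994 in the positive, where *Itgad* was listed at 0.

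The paralogues of the adhesion core that blood cells use followed them. *Fermt3*, the kindlin of blood cells, stood at 0.272 FPKM against 10.8 (-3.21), and *Parvg*, the gamma parvin of blood cells, at 0.324 against 12.2 (-3.32). Their positive values were 2.53% and 2.65% of the negative ones, and those of *Itgal*, *Itgam* and *Itgb2* were 0.922%, 2.34% and 0.496%. Of 14 leukocyte markers all 14 were at least 2-fold lower, with sums of 16.3 and 505 FPKM, a median positive value of 3.49% of the negative, and none at 0. Of 6 measured mast cell markers 6 were lower, with *Mcpt4*, *Ms4a2* and *Fcer1a* listed at 0 in the positive library. *Mcpt4* and *Fcer1a* were under 1 FPKM in the negative library too, at 0.684 and 0.0474. The sums of the mast cell list were 5.34 and 398 FPKM, and *Cpa3* alone held 271 of the latter. The part of these cells in the lower members was not tested.

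**Figure D3:**
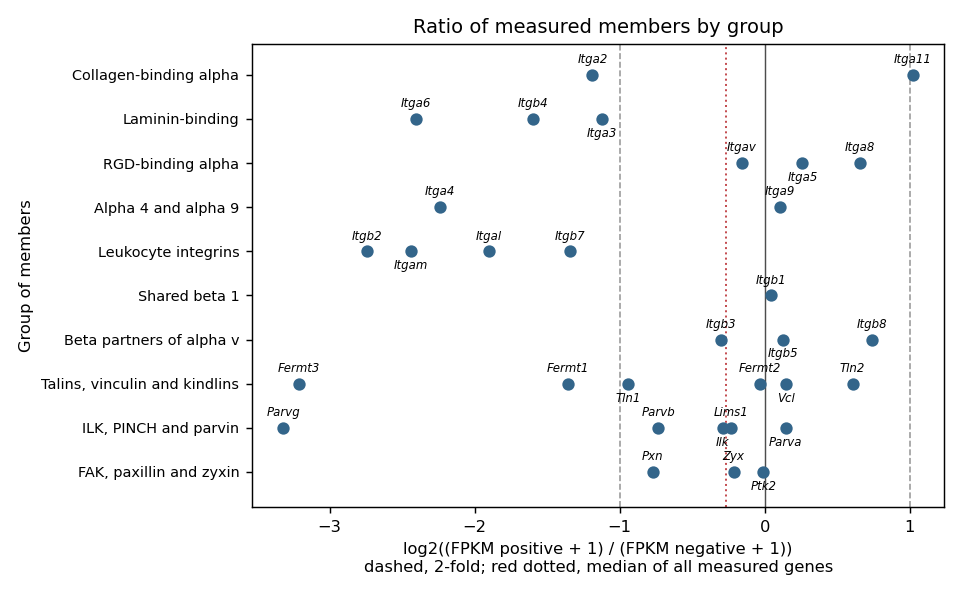
Log2 ratio of each of the 32 measured members by group, with 2-fold bounds (dashed) and the median of all measured genes (red dotted, -0.27). *Itga11* is the 1 point past 2-fold on the higher side. The measured leukocyte and laminin genes lie past it on the lower side, all but *Itga6* under 1 FPKM in the positive library.

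The common adhesion core was near level. *Fermt2*, the kindlin of mesenchymal cells, stood at 11.1 FPKM against 11.4 (log2 ratio -0.03), *Vcl*, which encodes vinculin, at 10.6 against 9.47 (0.14), and *Ptk2*, which encodes focal adhesion kinase, at 8.19 against 8.26 (-0.01). *Ilk*, the scaffold of its complex, stood at 23.9 against 29.4 (-0.29), *Parva*, the alpha parvin of most tissues, at 11.3 against 10.1 (0.14), and *Lims1*, the main PINCH gene, at 7.97 against 9.53 (-0.23). *Zyx*, which encodes zyxin of mature adhesions, stood at 23.04 against 26.9 (-0.21). The signs of *Fermt2*, *Ptk2*, *Ilk*, *Lims1* and *Zyx* turned with the scaling, so no direction is given for them. *Pxn*, the gene of the adaptor paxillin, was lower but within 2-fold, at 9.62 against 17.1 (-0.77), and -0.24 at the least. *Parvb*, beta parvin, stood at 0.966 against 2.27 (-0.73), and the minor PINCH gene *Lims2* was under 1 FPKM in both, at 0.0215 and 0.905. The first value of *Lims2* rests on about 82.8 aligned bases.

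The talins shifted against each other, both within 2-fold at the main setting. *Tln1*, the talin of most cells, stood at 8.58 FPKM against 17.4 (log2 ratio -0.94), 49.3% of the negative value. Its ratio was past 2-fold at -1.01 with a pseudocount of 0.1, but -0.72 with a pseudocount of 5. Under the other scalings it was -0.67 to -0.41. *Tln2*, the talin prominent in muscle, brain and heart, stood at 3.72 against 2.10 (0.61). *Tln2* thus made up 30.3% of talin FPKM in positive and 10.8% in the other cells. The 11 skeletal muscle markers, of which 9 were at least 2-fold higher in the same library, had sums of 161 and 20.8 FPKM, none was at 0, and their part in the talin shift was not tested.

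**Figure D4:**
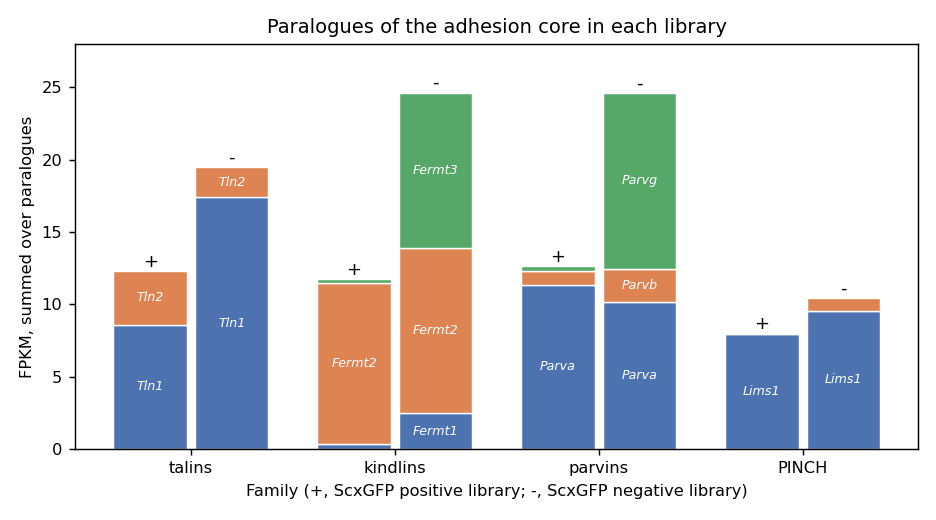
FPKM of talin, kindlin, parvin and PINCH paralogues stacked within the positive (+) and the negative (-) library. *Fermt2* and *Parva* have like heights in both, and the taller negative bars of kindlins and parvins hold *Fermt3* and *Parvg*.

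Summed over paralogues, kindlin FPKM was 11.7 against 24.6 and parvin FPKM 12.6 against 24.6. *Fermt2* made up 94.7% of the first and 46.3% of the second kindlin sum, and *Parva* 89.8% and 41.2% of the parvin sums. *Fermt3* and *Parvg* made up 43.8% and 49.6% of the sums in negative cells.

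Genes of integrin ligands were compared with their receptors at the main setting only. The other scalings were not run for them. Of 10 collagen chains 6 were at least 2-fold higher in positive cells (60%) and 0 lower, with a median log2 ratio of 1.37. All measured genes gave 4.03% higher and 9.98% lower. *Col3a1*, a fibrillar collagen of soft connective tissue, stood at 230 FPKM against 38.2, *Col1a1* and *Col1a2*, of type I collagen, at 268 against 44.6 and 285 against 60.3, and *Col11a1*, of type XI collagen, at 19.01 against 5.36. Thus both collagen and its receptor gene *Itga11* were higher in positive cells. *Col4a1* and *Col4a2*, of basement membrane, were within 2-fold, at 12.1 against 16.8 and 15.1 against 19.03. Of 8 measured laminin chains 1 was at least 2-fold higher (12.5%) and 2 lower (25%), beside those same shares of all genes. The higher one, *Lama2*, passed the minimum through the positive library alone, and the lower ones, *Lama3* and *Lama5*, through the negative alone. These counts are thus no support for a shift of the list. *Lama2*, the laminin chain of muscle and mesenchyme, stood at 3.001 against 0.715 (1.22), and *Lama3* and *Lama5*, chains of epithelial laminins, at 0.276 against 2.82 and 0.765 against 3.37. *Lamb2*, a beta chain of basement membrane laminins, was within 2-fold, at 6.93 against 4.35 (0.57).

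Genes listed as RGD and related ligands divided by gene. Of 11 measured ones 6 were at least 2-fold higher (54.5%) and 2 lower (18.2%), with a median of 1.39. All measured genes gave 4.03% and 9.98%. *Fn1*, which encodes fibronectin, stood at 85.3 FPKM against 19.6 (log2 ratio 2.07), while its receptor gene *Itga5* was within 2-fold. *Egfl6*, which encodes a secreted RGD protein, stood at 25.4 against 1.95 (3.16), and *Npnt*, the gene of nephronectin, the ligand of alpha 8, at 3.75 against 8.19 (-0.95). *Fbn1*, the fibrillin-1 gene, stood at 23.0 against 6.63 (1.65) and *Thbs1*, the thrombospondin-1 gene, at 15.7 against 4.31 (1.65). *Postn*, the gene of periostin, a ligand of alpha v integrins, stood at 70.2 against 26.2 (1.39). *Tgfb1*, one of the latent cytokines that alpha v integrins activate, stood at 0.370 against 9.81 (-2.98). It passed the minimum through the negative library alone. Its paralogues went the other way, *Tgfb3* at 9.68 against 2.74 (1.51) and *Tgfb2*, within 2-fold, at 15.9 against 10.96 (0.50). The matrix protein gene *Ecm1* stood at 1.14 against 5.35 (-1.57). *Vcam1*, the counter-receptor of alpha 4 and alpha 9, stood at 19.1 against 10.8 (0.78). The other 4 counter-receptor genes measured were at least 2-fold lower, 80% of those measured in that list against 9.98% of all measured genes. Each of the 4 was under 1 FPKM in positive cells and passed the minimum through the negative library alone. *Icam1* and *Icam2*, ligands of the leukocyte integrins, stood at 0.230 against 2.64 and 0.323 against 5.58. *F11r*, of tight junctions, stood at 0.309 against 2.75, and *Cdh1*, the E-cadherin gene and also 1 of the epidermal markers above, at 0.404 against 14.7 (-3.48).

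**Figure D5:**
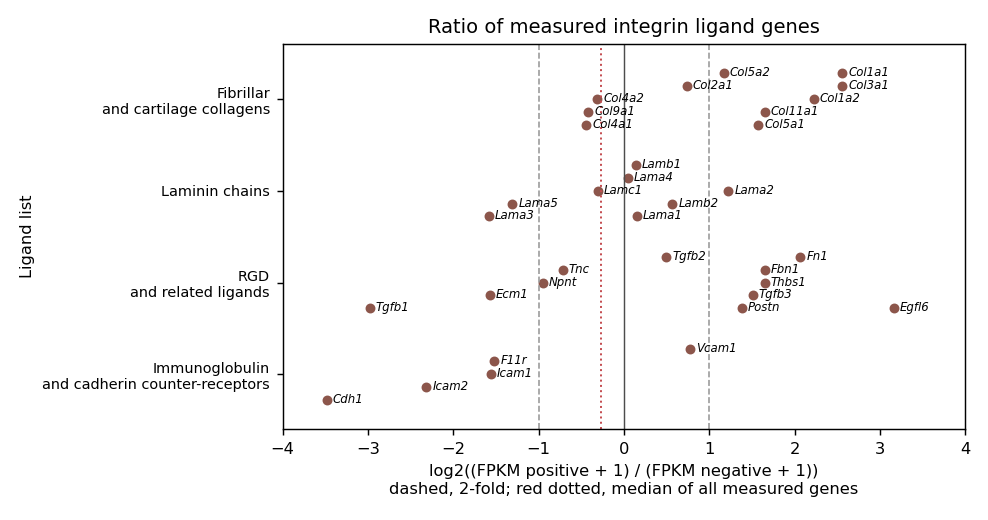
Log2 ratio of each measured ligand gene, by ligand list, with 2-fold bounds (dashed) and the median of all measured genes (red dotted). Of the collagen chains 6 of 10 lie past 2-fold on the higher side, and 4 of 5 counter-receptors on the lower side. All measured genes gave 4.03% on the higher and 9.98% on the lower side.

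Other genes of the pathway were mostly within 2-fold. The other scalings were not run for them either, so counts of these lists hold for the main setting alone. Of 24 adaptors and kinases of focal adhesions 0 were at least 2-fold higher and 1 lower, *Ptk2b*, which encodes the kinase PYK2 (0.0373 FPKM against 1.45, log2 ratio -1.24). *Ptk2b* passed the minimum through the negative library alone. The 2 shares were 0% and 4.17%, against 4.03% and 9.98% of all measured genes, and the median of the list was -0.16. The next largest ratios were those of *Lpxn*, a leukocyte paralogue of paxillin (0.0629 against 1.11, -0.99), the scaffold gene *Nedd9* (2.67 against 6.02, -0.94) and *Csk*, the kinase that restrains Src (6.44 against 13.05, -0.92). On the other side *Tns1*, which encodes the adhesion protein tensin-1, stood at 7.76 against 4.52 (0.67).

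Of 19 genes of actin at adhesions 1 was at least 2-fold higher (5.26%) and 4 lower (21.1%), with a median of -0.35. All measured genes gave 4.03% and 9.98%. *Flnc*, the filamin of muscle, stood at 10.8 FPKM against 1.23 (log2 ratio 2.41), beside the muscle markers noted above. *Myh9*, non-muscle myosin heavy chain, stood at 6.504 against 21.5 (-1.58), *Arpc2*, a subunit of the actin branching complex, at 44.6 against 129 (-1.51), and *Vasp*, an actin elongation factor, at 3.44 against 8.39 (-1.08). The fourth was *Pdlim5*, at 1.97 against 5.002, a gene of the actin and Z-disc scaffold.

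Of 12 measured activators, inhibitors and membrane partners of integrins 0 were at least 2-fold higher and 5 lower (41.7%), with a median of -0.92. All measured genes gave 4.03% and 9.98%. *Apbb1ip*, which encodes RIAM, the adaptor that brings talin to integrins in blood cells, stood at 0.220 FPKM against 6.85 (log2 ratio -2.69). It passed the minimum through the negative library alone. The tetraspanin genes *Cd9* and *Cd151*, partners of laminin-binding integrins, stood at 3.97 against 12.98 (-1.49) and 2.63 against 8.74 (-1.42). *Slc3a2*, which encodes a beta tail partner and amino acid transporter chain, stood at 7.72 against 20.4 (-1.29). The small GTPase gene *Rap1a*, an upstream switch of talin, stood at 11.5 against 29.3 (-1.28), and *Cd81*, another tetraspanin gene, at 117 against 114 (0.03).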

How the data were processed

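The 2 libraries were 1 of ScxGFP positive and 1 of ScxGFP negative cells, grouped by the labels' cell population. Per the labels' protocols, sorted cells were frozen, an RNeasy micro kit gave the RNA and a NuGEN Ovation assay the cDNA; that assay is not known to mark strand, so overlapping antisense genes cannot be told apart. The submitters' processing notes name TopHat 1.4.1, Bowtie 0.12.7 and the mm9 build; for the abundance program the version was not given in the sources used here. The deposited tables hold, per the file headers, the authors' FPKM, coverage (a signal of aligned depth) and transcript length for 28107 RefSeq transcripts, 54 of them of members, all with status OK. Starts were raised by 1, since length equalled end minus start in 3284 rows.

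FPKM was summed by symbol; symbols with a failed entry were missing. Aligned bases are coverage times length. Depth, from coverage, was 0.687 and 0.875 gigabases on transcripts; counts were not recovered, so no count test was run. The filter was 1 FPKM, the pseudocount 1, the size threshold 2-fold; every measured member is named, and of each pathway and ligand list the 4 largest ratios, the largest of opposite sign and ligands of described integrins. Members and lists were chosen with earlier results of these data known. *Spi1* and *Tns2* were matched by older symbols, *Ahsp* was not analysed here, and 1 ligand gene is not reported here. Alternatives were pseudocounts, filters, 5 scalings, the highest transcript, a 1.5-fold threshold and leaving out the leukocyte class. They were run for members and for the shares of all genes, not for the ligand, pathway and marker lists. Ratios were checked on simulated data. Python 3.11.15, pandas 2.3.3, NumPy 2.4.6 and Matplotlib 3.10.9 were used.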

Additional observations from a re-analysis of the deposited data

How the results depend on the processing

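The 1 member at least 2-fold higher, *Itga11*, was joined by *Itgb8* with a pseudocount of 0.1 (2 of 32 members, beside 5.89% of all measured genes). It was joined by *Itga8* with equal FPKM sums without transcripts under 200 bases (2 of 32, beside 6.02%). With a pseudocount of 5 it was lost (0 of 32, beside 1.84%). At a 1.5-fold threshold 4 were higher and 15 lower. The 12 lower members became 5 of 32 with a pseudocount of 5, beside 3.26% of all measured genes. They became 6 of 20 with a minimum of 5 FPKM, beside 10.6%. Without the leukocyte class, *Fermt3* and *Parvg* they were 6 of 26, beside 9.98%. Under the other settings at 2-fold they were 8 to 14, beside 4.94% to 14.7% of all genes. Of those 12, 8 were at least 2-fold lower under every scaling; the exceptions were *Itga2*, *Itga3*, *Itgb7* and *Fermt1*. The median log2 ratio of measured members, -0.30, was -0.43 and -0.22 with pseudocounts of 0.1 and 5, -0.23 without a filter, -0.22 with a minimum of 5 FPKM, -0.26 with the highest transcript and -0.19 without the leukocyte class. Its sign turned between scalings: -0.0496 when the median of all ratios was set to 1, -0.0842 with equal upper quartiles, 0.0285 with equal FPKM sums, -0.0285 without haemoglobin genes and 0.11 without transcripts under 200 bases, beside medians of all genes of -0.0006, -0.04, 0.08, 0.02 and 0.17. No single member past 2-fold changed sign under any alternative run. With 1 library per group nothing is known of the spread between samples, and values under about 0.1 FPKM rest on few aligned bases. How reads were divided among transcripts of a gene is the authors' estimate.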

Other observations

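Matrix receptors that are not integrins also differed by gene. *Ddr2*, which encodes a receptor tyrosine kinase for fibrillar collagen, stood at 14.1 FPKM in positive and 5.17 in negative cells (log2 ratio 1.29), and *Mrc2*, the gene of an endocytic collagen receptor, at 11.3 against 5.54 (0.91). *Ddr1*, the epithelial relative of *Ddr2*, stood at 2.91 against 4.43 (-0.47). The laminin receptor gene *Bcam* stood at 2.19 against 10.2 (-1.81), *Cd36*, a scavenger and thrombospondin receptor gene, at 0.213 against 3.26 (-1.81), and *Cd44*, the hyaluronan receptor gene, at 2.85 against 9.28 (-1.42). Of 11 genes in this list 1 was at least 2-fold higher, 3 were lower and 7 were within 2-fold, with a median of -0.33. The higher and lower shares were 9.09% and 27.3%, against 4.03% and 9.98% of all measured genes. Of the lower ones *Cd36* passed the minimum through the negative library alone.

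Some members are neighbours. *Parvb* (mm9 chromosome 15, 84062473 to 84146039) lies next to *Parvg* (84155150 to 84173408), with positive values at 42.5% and 2.65% of the negative ones. *Itga2* (chromosome 13, 115626120 to 115722249) lies beside *Itga1* (115748289 to 115892172), with 15.3% and 117%. *Itgal*, *Itgam*, *Itgax* and *Itgad* lie on chromosome 7 between 134439862 and 135349017.

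The split between listed transcripts differed for *Itgb5* and *Lims1*, as the authors' estimates. The *Itgb5* transcript NM_010580 stood at 1.29 FPKM in positive and 0.165 in negative cells, and NM_001145884 at 6.88 and 7.22. Of 3 *Lims1* transcripts, NM_201242 stood at 0.332 and 2.31, and NM_026148 at 7.36 and 6.70.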
